A study of Rattus norvegicus with 12 samples.

Results

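The genes described here are 42 interferon response genes of the rat, a list of genes that interferons induce together with the peptide processing genes of antigen presentation. Each was read from its single-symbol probe set with the highest mean over the 12 arrays. A probe set was found for 40 of them, out of 14167 genes with such a probe set in the whole series, and Ifi47 and Gbp5 were left out for want of one. For the comparison of interferon types, 21 of the 40 were placed among the type I genes (induced mainly by interferon alpha and beta) and 18 among the interferon-gamma type genes. Stat3, a signal carrier of several cytokines, was placed in neither class. The split is by the interferon each gene is best known for, and several members, such as Irf1 and Cxcl10, answer to both.

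Interferons are secreted proteins that cells release on sensing viruses (type I) or that activated lymphocytes release (interferon gamma). Type I interferons act through a receptor that assembles the factor ISGF3, made of Stat proteins and Irf9, which binds the interferon-stimulated response element (ISRE) and turns on antiviral effectors such as the Mx, Oas and Ifit families. Interferon gamma acts through Stat dimers that bind the gamma-activated site (GAS) and raises the immunity-related GTPases, the guanylate-binding proteins, the chemokines of the receptor Cxcr3 and the machinery that cuts and loads peptides onto class I molecules. In the kidney, tubule, endothelial and resident immune cells can all answer to both.

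The study measured kidney RNA of 4 rat strains on Affymetrix rat 3' expression arrays. SD rats are Sprague Dawley, an outbred stock, and PCK rats descend from that stock and carry mutated Pkhd1, whose human counterpart is mutated in autosomal recessive polycystic kidney disease. FHH rats are inbred and known as Fawn Hooded Hypertensive, and FHH.Pkhd1 rats are FHH rats into which the chromosome 9 interval between the markers D9Rat35 and D9Rat70 was bred from PCK. All rats were 30 days old and ate the same 5LOD diet, and none received another treatment per the labels. For each strain the RNA of both kidneys of 6 animals was made into 1 pool, which was put on 3 arrays. The 3 arrays of a strain are technical replicates, so each standard deviation (SD), standard error (SE) and p-value here measures the spread between arrays of 1 pool, and the spread between animals is not known. The FHH pair differs by a chromosome segment and all genes on it, and PCK and SD may differ at other loci too, so the Pkhd1 mutation and other differences of the pools cannot be told apart. Pkhd1 itself was not analysed here.

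Signals are given on the log2 scale; the median of an array was 6.41 to 6.46, and the number of arrays limits the precision. The detection level was set at 5.75, below which 40% of the values lie, and genes with at least 1 pool mean at or above it were tested. That level is no measured background, and RNA can be present beneath it. Of the 40 genes, 33 were tested (17 of 21 type I and 15 of 18 interferon-gamma type), and 30 were at or above the level in all 4 pools. The 7 that were not tested are Ifit3, Isg20, Oas1b, Ifih1, Gbp4, Nlrc5 and Cxcl9. The SD between arrays of a pool ranged from 0.0031 to 0.328 over the 40 genes, with a median of 0.0677. Calls required a limma adjusted p under 0.05 and a difference of at least 1.5-fold, which is 0.585 on the log2 scale. Counts at the adjusted p alone are given where so stated. A log2 signal depends on the probe set, so levels are compared between pools for a gene and never between genes. All 16 kidney markers measured were detected in every pool.

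The promoters of several members show the elements through which interferons act. RefSeq promoters (250 bases before to 50 after the start, build GRCr8) were matched for 35 of the 42 genes. Isg15, Ifit1, Ifit2, Mx2, Rtp4, Usp18 and Nlrc5 had none and were not searched, so the shares below do not cover them. The core of the ISRE, GAAANNGAAA or its reverse TTTCNNTTTC, was found in 23 of the 35 (65.7%), against 3.77% of all 27457 promoters. It lay in 11 of 15 type I promoters (73.3%) and in 12 of 19 interferon-gamma type promoters (63.2%), so it was frequent in both classes. GAS, searched as TTCNNNGAA, which is its own reverse, was found in 12 of the 35 (34.3%) against 8.68% of all promoters. Its share was 26.7% (4 of 15) in type I promoters and 42.1% (8 of 19) in interferon-gamma type promoters. Mx1, Oasl, Stat2, Psmb9, Psme1 and Stat3 held neither motif. The stretches below are from members whose values are described in the results, with the matched letters in capitals and each read 5′ to 3′ on the strand of its gene. A match is a description of the reference sequence, which is not that of the strains studied, and shows no binding.
Igtp, GAS then ISRE, chr10:42874913-42874973, + strand: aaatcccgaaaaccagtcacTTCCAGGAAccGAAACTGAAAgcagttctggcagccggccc
Irgm, GAS then ISRE, chr10:33742583-33742643, - strand: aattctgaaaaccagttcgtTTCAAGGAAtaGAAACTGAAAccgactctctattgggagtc
Bst2, GAS and ISRE sharing bases, chr16:18255063-18255124, - strand: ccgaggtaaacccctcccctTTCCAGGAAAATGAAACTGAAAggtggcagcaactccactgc
Cxcl11, GAS, chr14:15973478-15973506, + strand: TTCTAGGAAaagtcacctacagcagcagt
Oas1a, ISRE, chr12:41330405-41330460, + strand: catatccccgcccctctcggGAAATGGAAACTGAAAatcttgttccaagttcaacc
Irf7, ISRE, chr1:205800063-205800112, - strand: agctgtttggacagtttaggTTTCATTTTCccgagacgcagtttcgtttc
Tap1, ISRE, chr20:4668635-4668684, - strand: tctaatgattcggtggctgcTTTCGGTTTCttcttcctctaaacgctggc
Tap2, ISRE, chr20:4652308-4652357, - strand: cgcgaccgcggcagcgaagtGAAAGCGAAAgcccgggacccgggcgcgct
In Igtp and Irgm, both immunity-related GTPases, the GAS and ISRE letters stand a pair of bases apart. The letters of Igtp end 94 bases and those of Irgm 25 bases before the start of the gene. Tap1 and Tap2, which form the peptide transporter, and Oas1a and Irf7, of the type I class, all hold the ISRE letters, although their signals stood in opposite directions in the FHH pair described next.

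FHH.Pkhd1 set against FHH asks how the kidney differs when the PCK segment of chromosome 9 is present on the FHH background. In FHH.Pkhd1, 9 type I genes, Isg15, Mx1, Mx2 and Usp18 among them, were lower by less than 1.5-fold, and 4 of 8 peptide processing genes (Tap1, Tap2, Psmb9 and Psmb10) were higher. Of 17 type I genes, 16 had a lower mean in FHH.Pkhd1, with a median log2 difference of -0.18 against 0.01 for all 10858 genes tested. At the adjusted p alone 9 of the 17 were lower, where 9.72% of all genes tested were, and 0 were higher, where 12.6% of all were. Of the 9, Oas1a passed the filter through its FHH mean alone (5.76), a selection that favours a lower value in FHH.Pkhd1. Interferon-gamma type genes went both ways, with 5 of 15 higher, 3 lower and a median of 0.02. At 1.5-fold, 1 of the 33 genes was called, Igtp, which fell, where 1.26% of all genes tested were called and 0.866% were called lower. For the type I genes the limma count of calls was 0, with 10 lower and 0 higher at an unadjusted p under 0.05, and it was 0 too with trended or robust variances.

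**Figure D1:**
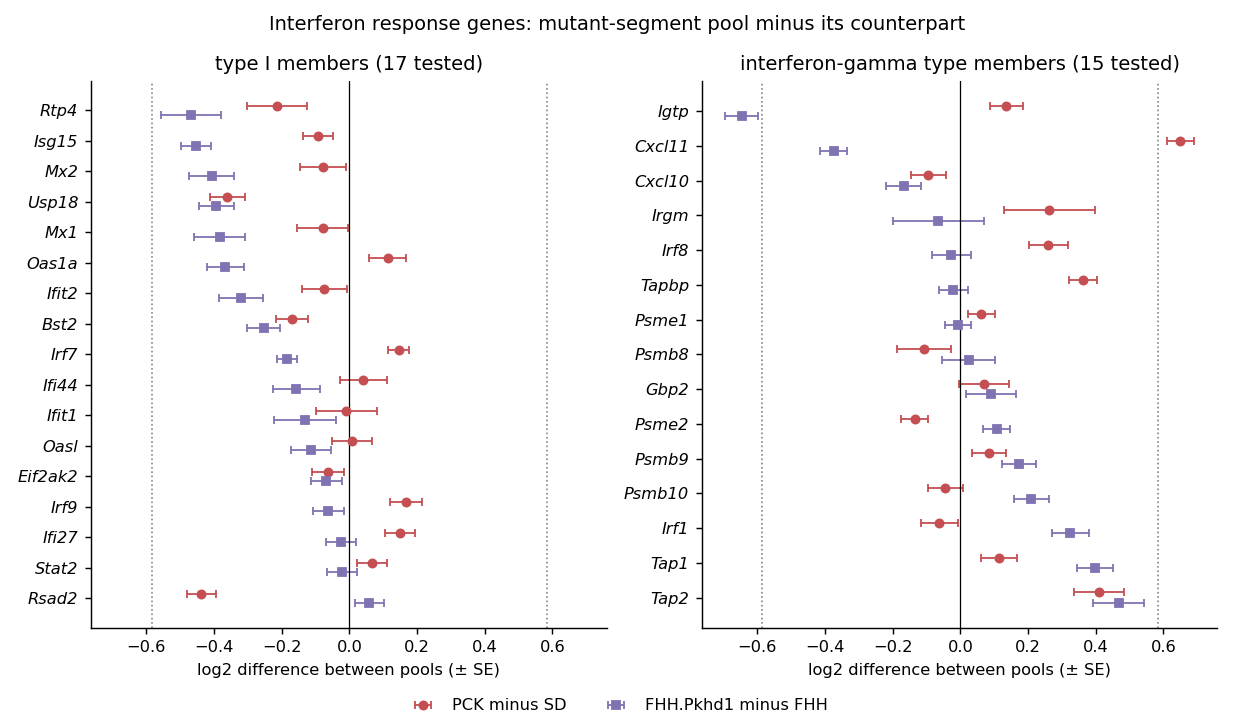
Log2 difference between pools (x axis, with SE from limma) of the 17 type I genes (left) and 15 interferon-gamma type genes (right) tested, for PCK minus SD (red circles) and FHH.Pkhd1 minus FHH (purple squares), with dotted lines at 1.5-fold. In FHH.Pkhd1 minus FHH the type I genes lie left of 0 except Rsad2, while Tap2, Tap1, Irf1, Psmb10 and Psmb9 lie to the right.

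Among the antiviral effectors, Isg15, a ubiquitin-like protein that is joined to other proteins in infected cells, read 7.70, 7.66 and 7.65 on the FHH arrays and 7.26, 7.18 and 7.21 on the FHH.Pkhd1 arrays. Every FHH.Pkhd1 array was below every FHH array, and also below every SD and PCK array, whose values were 7.58 to 7.80. The difference was -0.45 ± 0.04 (SE, limma adjusted p = 2.02e-05), short of 1.5-fold. Mx1, a dynamin-like GTPase that blocks viruses, read 6.34, 6.45 and 6.46 in FHH and 5.88, 6.06 and 6.16 in FHH.Pkhd1 (-0.38 ± 0.08, limma adjusted p = 0.00329). Its relative Mx2 differed by -0.41 ± 0.07 (limma adjusted p = 0.00107). Both Mx genes had their lowest mean in FHH.Pkhd1, and for both the arrays of the pair did not overlap.

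Oas1a, an enzyme that makes the short oligoadenylates that activate an RNase, read 5.75, 5.71 and 5.81 in FHH and 5.33, 5.32 and 5.52 in FHH.Pkhd1. These values straddle the detection level, so only the difference is given, -0.37 ± 0.05 (limma adjusted p = 0.000494). Ifit2, which binds foreign RNA, was lower by 0.32 on the log2 scale (-0.32 ± 0.07, limma adjusted p = 0.00427). Bst2, the tether that holds budding viruses at the cell surface, differed by -0.25 ± 0.05. Rtp4, a chaperone of receptors, was the type I gene with the largest difference, -0.47 ± 0.09 (limma adjusted p = 0.00271), with 7.98, 7.65 and 7.68 in FHH and 7.38, 7.26 and 7.27 in FHH.Pkhd1. The arrays of FHH and FHH.Pkhd1 did not overlap for Oas1a, Ifit2, Bst2 or Rtp4. Rsad2 (viperin), which makes an antiviral nucleotide, had the largest positive difference of the class: it read 8.71, 8.62 and 8.70 in FHH and 8.78, 8.74 and 8.69 in FHH.Pkhd1, with overlapping arrays and a difference of 0.06 ± 0.04 that did not pass (limma adjusted p = 0.376).

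Among the regulators of the type I class, Irf7, the factor that amplifies type I interferon production, read 8.58, 8.58 and 8.61 in FHH and 8.38, 8.40 and 8.43 in FHH.Pkhd1, with no overlap (-0.18 ± 0.03, limma adjusted p = 0.00116). Usp18, which removes Isg15 from proteins and restrains the receptor, read 6.62, 6.64 and 6.66 in FHH and 6.25, 6.25 and 6.24 in FHH.Pkhd1, with no overlap (-0.39 ± 0.05, limma adjusted p = 0.000202). The DNA-binding part of ISGF3, Irf9, differed by -0.06 ± 0.05, and its partner Stat2 by -0.02 ± 0.05, and neither passed the adjusted p. In all, 12 of the 17 type I genes had every FHH.Pkhd1 array below every FHH array, against 16.3% of all genes tested, and 0 had every array above, against 21.8%. Oas1a, which was tested only because of its FHH mean, is among the 12.

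**Figure D2:**
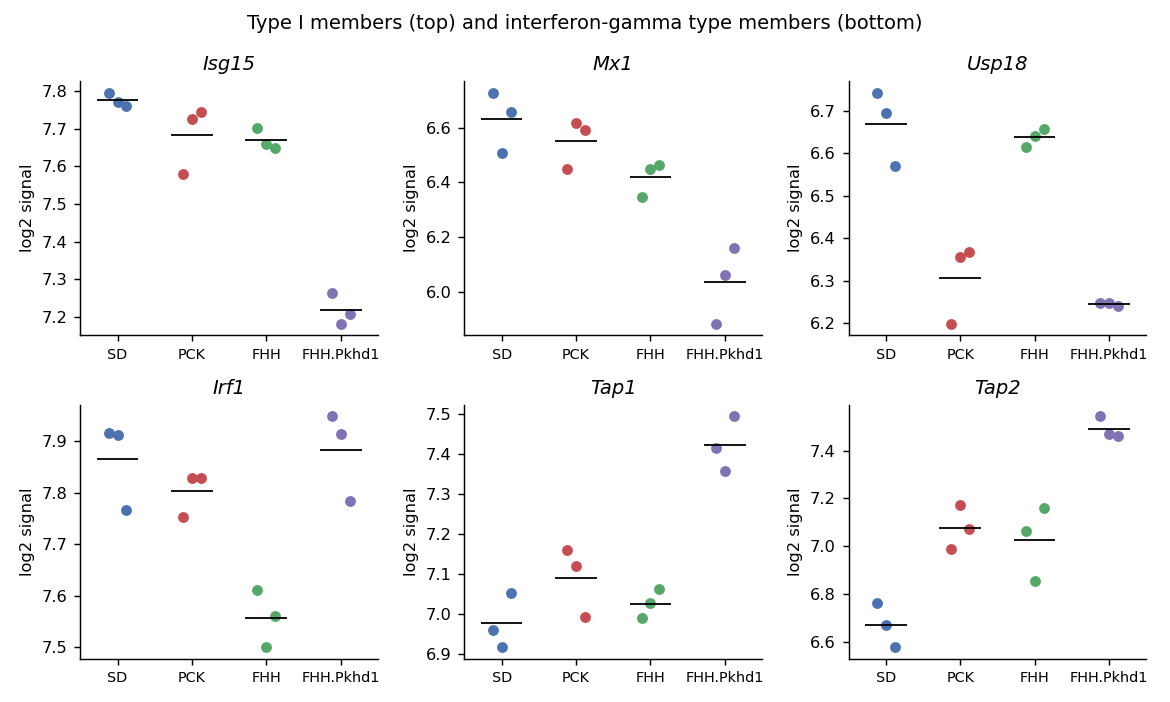
Log2 signal (y axis) on each array of 3 type I genes (Isg15, Mx1 and Usp18, top) and 3 interferon-gamma type genes (Irf1, Tap1 and Tap2, bottom) in SD, PCK, FHH and FHH.Pkhd1. Points are the 3 arrays of a pool and lines their mean; the FHH.Pkhd1 arrays lie below the FHH arrays in the top row and above them in the bottom row.

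Igtp, a GTPase that interferon gamma brings to the vacuoles of intracellular parasites, read 6.52, 6.43 and 6.49 on the FHH arrays and 5.84, 5.74 and 5.92 on the FHH.Pkhd1 arrays. All 3 FHH.Pkhd1 arrays stood below every array of the other 3 pools, where values ran from 6.43 to 6.80. The gene was 1.57-fold lower in FHH.Pkhd1 (-0.65 ± 0.05, limma adjusted p = 2.16e-06). Its FHH.Pkhd1 mean of 5.83 was just above the detection level. With the mean of both its probe sets the difference was -0.36 and the gene was not called. Irgm, its relative, did not reach the detection level in either FHH pool (5.55 and 5.49) and differed by -0.07 ± 0.13.

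Cxcl11 and Cxcl10, chemokines that draw T cells through Cxcr3, were lower in FHH.Pkhd1 at the adjusted p alone. Cxcl11 read 8.41, 8.36 and 8.33 in FHH and 7.98, 8.02 and 7.98 in FHH.Pkhd1, without overlap (-0.37 ± 0.04, limma adjusted p = 4.32e-05). Cxcl10 differed by -0.17 ± 0.05 (limma adjusted p = 0.0388). Cxcl9 was below the detection level in every pool and was not tested.

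Of the 8 peptide processing genes, 4 were higher in FHH.Pkhd1 at the adjusted p alone and the other 4 did not pass. Tap2, which with Tap1 carries peptides into the endoplasmic reticulum, read 7.06, 6.85 and 7.16 in FHH and 7.54, 7.47 and 7.46 in FHH.Pkhd1, with no overlap (0.47 ± 0.07, limma adjusted p = 0.000824). Tap1 read 6.99, 7.03 and 7.06 in FHH and 7.42, 7.36 and 7.50 in FHH.Pkhd1, again with no overlap (0.40 ± 0.05, limma adjusted p = 0.000238). Of the catalytic subunits of the immunoproteasome, Psmb10 differed by 0.21 ± 0.05 (limma adjusted p = 0.0123) and Psmb9 by 0.17 ± 0.05 (limma adjusted p = 0.0273), while Psmb8 differed by 0.02 ± 0.08 and did not pass. The proteasome activator subunits Psme1 and Psme2 and the loading bridge Tapbp did not pass either, with differences from -0.02 to 0.11. Over the 8 peptide processing genes the median was 0.14, and over the other 7 interferon-gamma type genes it was -0.07. Irf1, the factor that drives many of them, read 7.61, 7.50 and 7.56 in FHH and 7.95, 7.91 and 7.78 in FHH.Pkhd1 (0.33 ± 0.05 on the log2 scale, limma adjusted p = 0.00116). The count of 5 higher genes (Tap1, Tap2, Irf1, Psmb9 and Psmb10) stands against 12.6% of all genes tested, and without FHH.Pkhd1 replicate 1 it was 3, with Psmb9 and Psmb10 lost. For 7 of the 15 every FHH.Pkhd1 array was above every FHH array, against 21.8% of all genes tested, and for 3 (Cxcl10, Cxcl11 and Igtp) every array was below, against 16.3%.

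Markers of other cells and control probe sets differed between the same pools. Of 7 leukocyte markers tested, Cd53 was called, with a lower signal in FHH.Pkhd1 (-0.65 ± 0.05, limma adjusted p = 5.92e-06), Itgb2 differed by -0.51 ± 0.06 and the common leukocyte antigen gene Ptprc by -0.12 ± 0.06 (limma adjusted p = 0.189). The median of the 7 was -0.15, and the mean level of the 8 listed markers was 7.30 to 7.37 on FHH arrays, 7.15 to 7.19 on FHH.Pkhd1 arrays, 7.41 to 7.43 on SD arrays and 7.46 to 7.48 on PCK arrays. The 8 signals summed on the linear scale to 2187 to 2285 in FHH and 2102 to 2198 in FHH.Pkhd1, ranges that overlap. The largest part of that sum is Cd48, at 10.15 in FHH and 10.22 in FHH.Pkhd1 (0.07 ± 0.04, limma adjusted p = 0.193). Cd53, Itgb2, Rac2 and Laptm5 were lower at the adjusted p, and Coro1a and Ptprc did not pass. The defining markers of lymphocytes mostly stayed under the detection level. In FHH.Pkhd1, 2 of 12 T cell, 2 of 8 NK cell, 0 of 4 B cell and 1 of 4 dendritic cell markers reached it. Macrophage markers, 12 of 14 detected there, had a median of 0.09. The neutrophil gene S100a9 was called higher in FHH.Pkhd1 (1.24 ± 0.08, from 4.58 in FHH, below the detection level), and of the 5 neutrophil markers measured it alone reached that level there. The endothelial gene Vwf was called lower (-0.89 ± 0.06), with a median of 0.03 over 7 endothelial markers, and the kidney marker Slc4a1 was called higher (0.65 ± 0.04). The adrenal genes Cyp11a1, Hsd3b1 and Star were called higher in FHH.Pkhd1 (median of 4 tested 0.88), with a mean level of the list of 6.33 to 6.45 in FHH and 7.07 to 7.25 in FHH.Pkhd1. Poly-A spike-ins added before labelling were lower by 1.10 (-1.10), and beta-actin's 3' probe set less its 5' probe set was lower by 0.19 (-0.19), each with p = 0.1 in a two-sided exact permutation test, the lowest value possible with 3 arrays a group. The part of these in the differences of the interferon response genes was not tested. In bulk tissue, fewer cells of a type and less RNA per cell cannot be told apart.

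PCK against SD asks how the mutant strain differs from the stock from which it was derived. Here the type I genes did not move in 1 direction. Of the 17, 3 were higher in PCK (Irf7, Irf9 and Ifi27) and 3 lower (Rsad2, Usp18 and Bst2) at the adjusted p alone, where 17.3% and 18.8% of all genes tested were, respectively, and the median was -0.06. Of 15 interferon-gamma type genes 5 were higher (Cxcl11, Tap2, Tapbp, Irf8 and Igtp) and 1 lower (Psme2), with a median of 0.09 against -0.00 for all genes tested. At 1.5-fold 1 of the 33 was called, Cxcl11, which rose; 3.12% of all genes tested were called, 1.69% higher. The limma count of type I calls was 0, with 3 higher and 4 lower at an unadjusted p under 0.05, and 0 with trended or robust variances.

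Cxcl11 read 8.28, 8.32 and 8.24 on the SD arrays and 8.86, 8.96 and 8.97 on the PCK arrays. The PCK arrays were the highest of all 12 and did not overlap with any other pool. The gene was 1.57-fold higher in PCK (0.65 ± 0.04, limma adjusted p = 1.3e-07). Its neighbour Cxcl10 read 7.36, 7.25 and 7.25 in SD and 7.18, 7.19 and 7.20 in PCK, a difference of -0.09 ± 0.05 that did not pass (limma adjusted p = 0.188).

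Rsad2 read 9.05, 9.17 and 9.09 in SD and 8.65, 8.73 and 8.62 in PCK, with no overlap (-0.44 ± 0.04, limma adjusted p = 9.38e-06). SD was the high pool for this gene, and the other 3 pools lay between 8.62 and 8.78. Usp18 was lower in PCK by 0.36 (-0.36 ± 0.05, limma adjusted p = 0.000182), at 6.74, 6.69 and 6.57 in SD and 6.2, 6.36 and 6.37 in PCK. The largest positive difference of the class was that of Irf9, which read 7.28, 7.36 and 7.16 in SD and 7.45, 7.42 and 7.44 in PCK without overlap (0.17 ± 0.05, limma adjusted p = 0.0138). Of the peptide processing genes, Tap2 read 6.76, 6.67 and 6.58 in SD and 6.99, 7.17 and 7.07 in PCK (0.41 ± 0.07, limma adjusted p = 0.00105), and Tapbp was higher by 0.36 ± 0.04 (limma adjusted p = 3.35e-05). Tap1, at 0.11 ± 0.05, did not pass. Stat3 stood at 9.94, 9.70 and 9.63 in SD and 10.17, 10.21 and 10.26 in PCK (0.46 ± 0.13, limma adjusted p = 0.0136). Leukocyte markers had a median of -0.01 in this comparison, with values from -0.24 (Coro1a) to 0.41 (Cd53). The macrophage gene Mrc1 (0.90 ± 0.05) and the endothelial gene Vwf (0.76 ± 0.06) were called higher in PCK, and the dendritic cell gene Itgax (-0.77 ± 0.08) and the tubule gene Calb1 (-0.68 ± 0.03) were called lower. The medians were 0.06 over 13 macrophage, 0.17 over 7 endothelial and 0.04 over 16 kidney markers, and poly-A spike-ins were higher in PCK by 0.35 (two-sided exact permutation p = 0.1). Beta-actin's 3' probe set less its 5' probe set was higher in PCK by 0.23 (two-sided exact permutation p = 0.1). All 3 red cell genes tested were called lower in PCK, with a median of -1.13. Their part in the differences of the members was not tested.

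**Figure D3:**
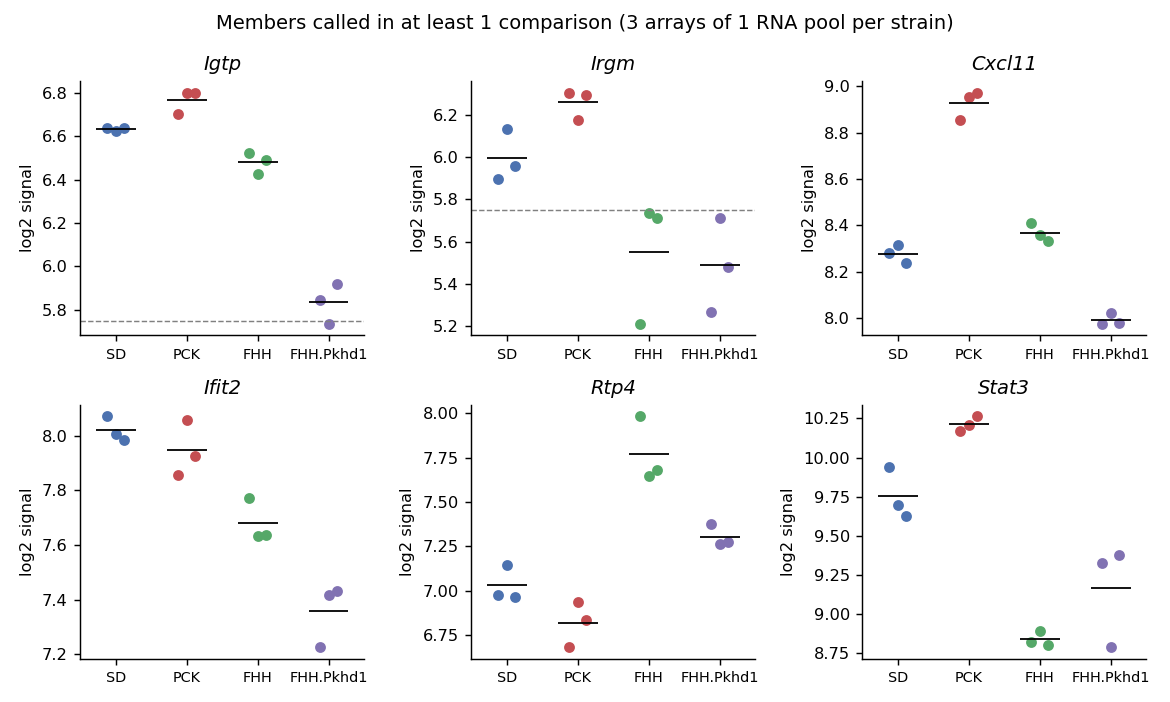
Log2 signal (y axis) on each array of the 6 genes called in at least 1 comparison (Igtp, Irgm, Cxcl11, Ifit2, Rtp4 and Stat3) in SD, PCK, FHH and FHH.Pkhd1; points are the 3 arrays of a pool, lines their mean and the dashed line the detection level of 5.75. Igtp is low in FHH.Pkhd1 alone, at 5.74 to 5.92, and Cxcl11 is highest in PCK, at 8.86 to 8.97, and lowest in FHH.Pkhd1, at 7.98 to 8.02.

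The interaction, which is PCK minus SD less FHH.Pkhd1 minus FHH, tests whether the 2 differences are unequal. It uses the same arrays as both, so it adds no independent data. Cxcl11, higher in PCK than in SD and lower in FHH.Pkhd1 than in FHH, had an interaction of 1.02 ± 0.06 (limma adjusted p = 8.47e-08). Igtp differed by 0.14 ± 0.05 in PCK minus SD (limma adjusted p = 0.045) and by -0.65 in FHH.Pkhd1 minus FHH, with an interaction of 0.78 ± 0.07 (limma adjusted p = 3.82e-06). These were the called genes, 2 of 33, where 5.02% of all genes tested were called and 2.89% were higher. With its probe sets averaged, Igtp had an interaction of 0.20 and was not called. Among the cell markers, Cd53 (1.06 ± 0.08), Itgb2 (0.84 ± 0.08), Mrc1 (0.74 ± 0.08) and Vwf (1.66 ± 0.08) had called positive interactions as well. Called negative interactions were those of Calb1 (-0.81), Slc4a1 (-0.61), S100a9 (-0.71), Star (-0.93), Cyp11a1 (-1.08), Hsd3b1 (-1.08) and all 3 red cell genes (median -1.21). The median interaction was 0.17 over leukocyte, -0.04 over macrophage and 0.17 over endothelial markers. The part of these markers in the interactions of the members was not tested.

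Of the type I genes, the interaction was positive at the adjusted p alone for 6 of 17 (Oas1a, Isg15, Irf7, Mx2, Mx1 and Irf9), where 14% of all genes tested were, and negative for 1, Rsad2, where 16.7% of all were (-0.50 ± 0.06, limma adjusted p = 8.43e-05). For Mx2 this holds for the kept probe set (0.33), while its other probe set gave -2.41. Oas1a had the largest positive value, 0.48 ± 0.08 (limma adjusted p = 0.000577), and read 5.49, 5.56 and 5.47 in SD and 5.56, 5.63 and 5.67 in PCK, below the detection level. It was tested only because of its FHH mean, a selection that favours a positive interaction. At an unadjusted p under 0.05, 8 type I genes were positive and 1 negative, and none was called by limma with standard, trended or robust variances. The median interaction was 0.20 over the type I genes, -0.02 over the interferon-gamma type genes and -0.01 over all genes tested. Usp18, lower in both PCK and FHH.Pkhd1 than in their counterparts, had an interaction of 0.03 ± 0.07, and Tap2, higher in both, had one of -0.06 ± 0.11. At the adjusted p alone the interaction was negative for 4 of 15 interferon-gamma type genes, Irf1 (-0.39 ± 0.08, limma adjusted p = 0.0024), Tap1, Psmb10 and Psme2. It was positive for 4, Tapbp and Irf8 besides Cxcl11 and Igtp.

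PCK against FHH.Pkhd1 sets both pools that carry the PCK segment side by side; it shares the PCK arrays with the second comparison and the FHH.Pkhd1 arrays with the first. Most members stood higher in PCK. At 1.5-fold, 5 of the 33 were called, all higher (Stat3, Cxcl11, Igtp, Irgm and Ifit2), where 5.83% of all genes tested were called and 2.93% were higher. At the adjusted p alone 10 of 17 type I genes were higher and 3 lower, where 18.3% and 35.6% of all genes tested were, and 9 of 15 interferon-gamma type genes were higher and 4 lower. Irgm, among the 5 and the 9, and Oasl, among the 10, passed the filter through their SD and PCK means alone. That selection favours a higher value in PCK. The medians were 0.16 for type I, 0.14 for interferon-gamma type and -0.06 for all genes tested.

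Cxcl11 differed by 0.94 ± 0.04 (limma adjusted p = 2.27e-09) and Igtp by 0.93 ± 0.05 (limma adjusted p = 1.27e-08), with the array values given above. Irgm read 6.30, 6.17 and 6.29 in PCK and 5.27, 5.71 and 5.48 in FHH.Pkhd1, where it was below the detection level (0.77 ± 0.13, limma adjusted p = 0.000469). In SD it read 5.89, 6.13 and 5.96 and in FHH 5.21, 5.74 and 5.71, so both FHH pools were below both others without overlap. Ifit2 read 7.86, 8.06 and 7.93 in PCK and 7.23, 7.42 and 7.43 in FHH.Pkhd1, a 1.5-fold difference at the limit (0.59 ± 0.07, limma adjusted p = 1.29e-05). It was no longer called without PCK replicate 2 (0.53), without FHH.Pkhd1 replicate 1 (0.52) or when its probe sets were averaged (0.48). Ifit2 read 8.07, 8.01 and 7.99 in SD, so FHH.Pkhd1 was its lowest pool and FHH, at 7.77, 7.63 and 7.64, lay below SD and PCK.

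The genes lower in PCK than in FHH.Pkhd1 were Rtp4 (-0.49 ± 0.09, limma adjusted p = 0.000636), Ifit1 (-0.41 ± 0.09) and Stat2 in the type I class, and Tap2 (-0.41 ± 0.07), Tap1 (-0.33 ± 0.05), Psme2 and Psmb10 in the interferon-gamma class. Leukocyte markers had a median of 0.27 in this comparison, with Cd53 (0.75 ± 0.05) and Itgb2 (0.61 ± 0.06) called higher in PCK, as was the macrophage gene Ctss (0.66 ± 0.04). Over 13 macrophage markers the median was 0.17. S100a9 (-0.91 ± 0.08) and Calb1 (-0.79 ± 0.03) were called lower, and all 4 adrenal markers tested were called lower (median -2.29). Poly-A spike-ins were higher in PCK by 0.81, and beta-actin's 3' probe set less its 5' probe set by 0.13 (each two-sided exact permutation p = 0.1). Their part in the differences was not tested.

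SD against FHH compares the parent backgrounds, without the PCK segment. At 1.5-fold 2 of the 33 were called, Stat3 higher in SD and Rtp4 lower, where 3.31% of all genes tested were called, 1.56% higher and 1.75% lower. Rtp4 read 6.98, 7.15 and 6.97 in SD and 7.98, 7.65 and 7.68 in FHH, with no overlap, and was 1.67-fold lower in SD (-0.74 ± 0.09, limma adjusted p = 4.37e-05). In PCK it read 6.68, 6.93 and 6.83, so both FHH pools were above both others. At the adjusted p alone 3 type I genes were higher in SD (Ifit2, Mx1 and Rsad2) and 6 lower (Rtp4, Ifit1, Irf7, Oas1a, Stat2 and Ifi27), where 12.6% and 24.5% of all genes tested were. Of the 6, Oas1a was tested only because of its FHH mean, a selection that favours a lower value in SD. Ifit1, whose product binds uncapped viral RNA, was lower by 0.53 (-0.53 ± 0.09, limma adjusted p = 0.000702), from 5.80, 5.86 and 5.81 in SD against 6.36, 6.34 and 6.37 in FHH.

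Of the interferon-gamma type genes 7 were higher in SD and 3 lower at the adjusted p alone, where 12.6% and 24.5% of all genes tested were. Irgm, among the 7, passed the filter through its SD and PCK means alone, a selection that favours a higher value in SD. The limma count of calls was 0, where 3.31% of all were called, with 7 higher and 4 lower at an unadjusted p under 0.05, and 0 with trended or robust variances. Psmb8, the catalytic immunoproteasome subunit, had the largest positive difference: it read 8.10, 8.06 and 7.96 in SD and 7.73, 7.44 and 7.55 in FHH (0.47 ± 0.08, limma adjusted p = 0.000642). Tap2 had the largest negative one, -0.36 ± 0.07 (limma adjusted p = 0.00271), without overlap. The other genes higher in SD were Irgm (0.44 ± 0.13), Gbp2 (0.32 ± 0.07), Irf1 (0.31 ± 0.05), Psmb9, Cxcl10 and Igtp. Markers also differed here. Vwf was called lower in SD (-1.30 ± 0.06). The median was 0.09 over leukocyte, 0.25 over 13 macrophage and -0.22 over 7 endothelial markers, 1.21 over red cell genes and -1.28 over adrenal genes. Poly-A spike-ins were lower in SD by 0.64 (-0.64, two-sided exact permutation p = 0.1). Beta-actin's 3' probe set less its 5' probe set was lower in SD by 0.28 (-0.28, two-sided exact permutation p = 0.1). What they contribute was not tested.

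Stat3 was the member with the widest range of pool means, 1.37 on the log2 scale. It read 8.82, 8.89 and 8.80 in FHH, 9.33, 8.79 and 9.38 in FHH.Pkhd1, and its SD and PCK values are given above. The SD and PCK arrays were above all FHH and FHH.Pkhd1 arrays, and the FHH and FHH.Pkhd1 arrays overlapped. The difference was 0.91 ± 0.13 in SD minus FHH (limma adjusted p = 0.000141) and 1.05 ± 0.13 in PCK minus FHH.Pkhd1 (limma adjusted p = 2.46e-05). Its other detected probe set did not show this: it averaged 7.19 in SD, 7.64 in PCK, 7.38 in FHH and 7.51 in FHH.Pkhd1, differences of -0.19 and 0.13. With the mean of both, Stat3 differed by 0.36 in SD minus FHH and was not called.

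In all, 9 members, Stat3 included, had more than 1 probe set, and those of some others disagreed too. Mx2 was nearly level in SD and PCK on its kept probe set (6.62 and 6.55), but its other probe set read 6.29, 6.01 and 6.2 in SD and averaged 3.69 in PCK, 3.58 in FHH and 3.51 in FHH.Pkhd1. That probe set was above the detection level in SD alone, with differences of -2.48 in PCK minus SD and 2.59 in SD minus FHH. Its interaction was -2.41, where the kept probe set of Mx2 gave 0.33. The other probe set of Igtp was below the detection level in all pools (4.55 to 5.38) and gave -0.08 in FHH.Pkhd1 minus FHH. Why the probe sets of these genes disagree was not tested. The other probe sets of Ifit2, Stat2 and Irf9, all detected, gave -0.21, 0.02 and -0.13 in FHH.Pkhd1 minus FHH, where the kept ones gave -0.32, -0.02 and -0.06.

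**Figure D4:**
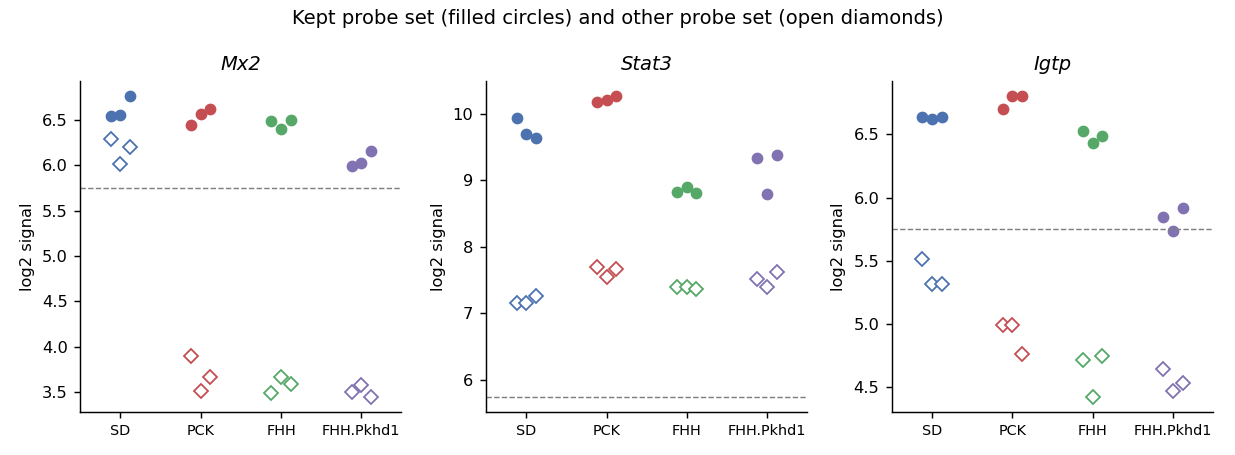
Log2 signal (y axis) on each array of the kept (filled circles) and the other (open diamonds) probe set of Mx2, Stat3 and Igtp in SD, PCK, FHH and FHH.Pkhd1, with the detection level of 5.75 dashed. The other probe set of Mx2 is detected in SD alone (6.01 to 6.29), and that of Stat3 lacks the step between the SD and FHH backgrounds.

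The order of the pools also differed between the classes. FHH.Pkhd1 was the lowest pool for 11 of 17 type I genes (64.7%), where it was the lowest for 21.1% of all genes tested, and it was the highest for 0 of the 17, where it was the highest for 37.4% of all. Oas1a, tested only because of its FHH mean, and Oasl, tested only because of its SD and PCK means, are among the 11. Such a selection favours a low place for the pools that did not pass it. SD was the highest pool for 8 of the 17 (47.1%), where it was the highest for 18.6% of all. For the interferon-gamma type genes PCK was the highest pool for 7 of 15 (46.7%, against 22% of all). FHH.Pkhd1 was the highest for 5 and the lowest for 5 (33.3% each), against 37.4% and 21.1% of all, respectively. Irgm, tested only because of its SD and PCK means, is among the 7 highest in PCK and the 5 lowest in FHH.Pkhd1. As a summary of each array, the deviation of each gene from its mean over the 12 arrays was taken and the median over the class was found. The type I median was -0.10, -0.11 and -0.14 on the FHH.Pkhd1 arrays and -0.01 to 0.12 on the other 9. The interferon-gamma type median was 0.05, 0.14 and 0.10 on the PCK arrays, 0.04, -0.01 and 0.00 on the SD arrays, -0.00, -0.11 and -0.06 on the FHH arrays and -0.01, -0.02 and -0.05 on the FHH.Pkhd1 arrays. The type I values of FHH.Pkhd1 were thus below all others, and for the interferon-gamma type genes the PCK arrays were above all others while FHH and FHH.Pkhd1 overlapped.

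**Figure D5:**
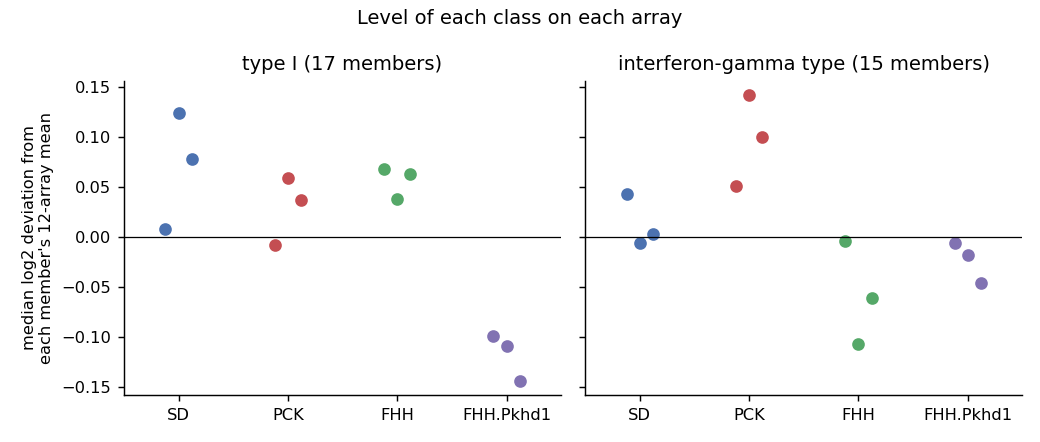
Median over 17 type I genes (left) and 15 interferon-gamma type genes (right) of each gene's log2 deviation from its mean over the 12 arrays (y axis), 1 point per array, in SD, PCK, FHH and FHH.Pkhd1. The type I points of FHH.Pkhd1, at -0.14 to -0.10, lie below those of the other 9 arrays.

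None of the 42 genes lies on chromosome 9, which carries the PCK segment, in the GRCr8 annotation; they lie on 15 other chromosomes. Tap2, Psmb8, Tap1 and Psmb9 follow each other on chromosome 20 with no protein-coding gene between them, and Tapbp lies 20 genes further on. These neighbours did not share a direction in SD minus FHH, where Psmb8 differed by 0.47, Psmb9 by 0.23, Tap1 by -0.05 and Tap2 by -0.36. In FHH.Pkhd1 minus FHH the adjoining genes were all positive, Tap2 at 0.47, Tap1 at 0.40, Psmb9 at 0.17 and Psmb8 at 0.02. Tapbp differed by -0.02 there, and neither it nor Psmb8 passed the adjusted p. Cxcl11, Cxcl10 and Cxcl9 adjoin on chromosome 14, and Cxcl11 and Cxcl10 differed by 0.65 and -0.09 in PCK minus SD.

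Other genes of the pathway were read from lists of receptors, sensors, inhibitors, further induced genes and class I loading genes, of which 55 were tested. In FHH.Pkhd1 minus FHH 5 of the 55 were higher and 4 lower at the adjusted p alone, where 12.6% and 9.72% of all genes tested were, with a median of 0.01. Of the 23 further induced genes, 1 was higher (Wars1, a tRNA synthetase, 0.18 ± 0.05, limma adjusted p = 0.0312) and 2 were lower (Ifitm1 and Ifi35), with a median of 0.01. The largest differences in the lists were those of the DNA-sensing adaptor Sting1 (0.31 ± 0.09, limma adjusted p = 0.0251) and the factor Irf3, which starts interferon production (-0.20 ± 0.04, limma adjusted p = 0.00408). Limma called 0 of the 55 at 1.5-fold, with 9 higher and 7 lower at an unadjusted p under 0.05, and 0 with trended or robust variances. The interferon genes themselves, Ifnb1 (4.35 to 4.54 over the pools) and Ifng (3.01 to 3.13), were below the detection level in every pool, and of the 8 receptor and kinase genes tested 1 was lower at the adjusted p alone.

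In PCK minus SD 13 of the 55 were higher and 3 lower at the adjusted p alone, where 17.3% and 18.8% of all genes tested were. Limma called 0 (14 higher and 7 lower at an unadjusted p under 0.05), also with trended or robust variances, where 3.12% of all were called. Nmi, an induced partner of Stat proteins, had the largest difference (0.52 ± 0.06, limma adjusted p = 2e-05), and Ciita, the switch of class II genes, the largest negative one (-0.36 ± 0.08, limma adjusted p = 0.00553). In PCK minus FHH.Pkhd1 2 of the 55 were called, where 5.83% of all genes tested were: Ifitm2, a membrane protein that blocks viral entry, rose by 0.59 ± 0.03 (limma adjusted p = 2.67e-08), and Ciita, at 5.69 in PCK and below the detection level there, fell by 0.85 (-0.85 ± 0.08, limma adjusted p = 4.28e-06).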

How the data were processed

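Kidney RNA of 4 rat strains was measured on 12 arrays, 3 technical replicates of 1 pool per strain, each from 100 ng of RNA. The authors' deposited table holds log2 signals per probe set. RMA and Partek 6.2 are named in the submitters' processing notes, with no order of steps. The sources used here do not say whether all arrays were normalized jointly, and no further normalization was applied.

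Of 31099 probe sets, 57 were controls and 20826 of the others carried 1 gene symbol, 436 several and 9780 none in the platform annotation; 20758 matched a current RefSeq record. For each gene the probe set brightest on average was kept. A gene entered the tests if at least 1 pool mean reached the detection level.

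Differences were estimated with limma 3.58.1 (R 4.3.3), with 1 mean per strain over all 12 arrays and eBayes variances (prior degrees of freedom 4.02, residual 8). Benjamini-Hochberg adjustment ran over the 10858 genes tested. Control probe sets were compared by two-sided exact permutation tests. The procedure was tested on simulated data. Array values are given for members called in any comparison and, where a class had none called, for its largest difference in each direction; further members were added after their values were seen. Pathway genes are named where called, otherwise for the largest differences, and a few others were chosen after their values were seen. The members, the lists and their division into classes were chosen with earlier results of these data known. Alternatives changed 1 choice at a time: the filter, the normalization, the replicate term, the probe set, the variance model, the fold limit or the arrays used. Counts at the adjusted p alone were added to the alternatives after the data were seen. Figures were drawn with matplotlib 3.10.9.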

Additional observations from a re-analysis of the deposited data

Results flagged for a closer look

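For 2 genes the difference between the mutant-segment pool and its counterpart was unequal on the SD and FHH backgrounds by the interaction term of the limma fit. Cxcl11 had an interaction of 1.02 on the log2 scale: all 3 PCK arrays were above all SD arrays, and all 3 FHH.Pkhd1 arrays were below all FHH arrays. Igtp had an interaction of 0.78, with all PCK arrays above all SD arrays by a small margin and all FHH.Pkhd1 arrays well below all FHH arrays. Each of the 4 pools enters this term once, so a feature of 1 pool and an effect of the background cannot be told apart.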

How the results depend on the processing

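No called difference changed direction under the alternatives run. Members called numbered 1 between PCK and SD, 1 between FHH.Pkhd1 and FHH (the FHH pair), 5 between PCK and FHH.Pkhd1, 2 between SD and FHH and 2 in the interaction. In that order they were 6, 11, 14, 9 and 9 with the smaller fold limit and 13, 17, 27, 20 and 15 with none, since fewer conditions apply. With the filter at the 60th percentile, where 24 members were tested and Igtp was not, limma called 0 in the FHH pair (7 higher and 8 lower at an unadjusted p under 0.05), 3 between PCK and FHH.Pkhd1 and 1 in the interaction. With the mean of all probe sets it called 2 in PCK minus SD, Mx2 being added, and 0 in the FHH pair (6 higher and 14 lower at an unadjusted p under 0.05). The kept and other probe sets of Mx2 also disagreed in SD minus FHH (0.16 and 2.59) and in the interaction (0.33 and -2.41). The counts of calls with averaged probe sets are not given here for those comparisons. At the adjusted p alone, the 60th percentile filter, which tests 11 type I genes, left 5 of 9 type I genes lower in the FHH pair and 6 of 10 higher in PCK than in FHH.Pkhd1. Leaving out each array in turn gave 1 to 1, 1 to 1, 4 to 5, 2 to 2 and 2 to 2 calls. The count of type I genes lower in the FHH pair was then 8 to 10, that of interferon-gamma type genes higher was 3 to 5, and that of type I genes higher in PCK than in FHH.Pkhd1 was 7 to 10.

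The type I median in the FHH pair ranged from -0.21 to -0.16 over the alternatives, and the interferon-gamma median of the interaction from -0.07 to 0.08, so its sign is not settled. No other class median changed sign. Quantile normalization moved the median of all genes by at most 0.05. Whether the replicate numbers pair the arrays was not settled. Over 18 same-numbered pairs the correlation of deviations was -0.332 to 0.338, and 6 of 12 arrays correlated best with their own number. With a replicate block the calls stayed at 1, 1, 5, 2 and 2. The fit on the compared arrays alone was not run for the interaction, which uses every array. The 12 arrays of 4 pools limit all of these values, since no animal was measured alone.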

Other observations

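Among the pathway genes outside the list, Ciita had pool means of 6.04 in SD, 5.69 in PCK, 6.42 in FHH and 6.54 in FHH.Pkhd1. Ifitm2 was higher on the SD than on the FHH background: it averaged 11.55 in SD and 11.59 in PCK against 10.98 in FHH. Its difference between SD and FHH was 0.56 ± 0.03 (limma adjusted p = 7.35e-08), just short of 1.5-fold. Nmi gave -0.51 ± 0.06 in SD minus FHH (limma adjusted p = 2.28e-05) and 0.52 in PCK minus SD, comparisons that share the SD arrays.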
